A study of Homo sapiens with 6 samples.

Results

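The transcripts described here are those of 8 genes of the death receptor and caspase pathway, namely TNFRSF10A, TNFRSF10B, FAS, FADD, CASP8, CFLAR, CASP9 and CASP6, which were taken by gene symbol from the 23619 genes of the deposited table. All 8 were found, each in 1 row. RNA-seq was done on T24 cells, an established human bladder cancer line that the labels give as wild type (WT) in genotype. Cells of 3 libraries had received Caba-780, a drug for near-infrared fluorescence imaging, at 3.84 µM for 24 h, and 3 control libraries are labelled as having no treatment. The labels name no vehicle, and they leave unsaid whether each replicate was its own culture, so the p-values reflect a spread that may be technical. The question was which transcripts differed between the 2 groups.

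Death receptors are cell-surface receptors of the TNF receptor superfamily with an intracellular death domain. When ligand binds, TNFRSF10A (DR4) and TNFRSF10B (DR5), the receptors of TRAIL, and FAS, the receptor of FAS ligand, recruit the adaptor FADD, which brings the initiator CASP8 into a signalling complex where it is activated. CFLAR (c-FLIP) enters the same complex as a relative of CASP8 that lacks protease activity and can block or tune it. CASP9 is the initiator of the mitochondrial route, activated on the apoptosome, and CASP6 is an executioner caspase that cleaves lamins among other substrates. The table gives 1 value per gene, so splice forms with different roles, such as long and short CFLAR or membrane-bound and soluble FAS, could not be told apart, and neither transcript levels nor these tests measure cleavage of any caspase.

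Values are normalized counts, the authors' read count of a gene scaled by the size factor of its library, and reads in genes numbered 14591234 to 15983035 per library. Control replicate 3 stood apart: 13627 genes had a read in it, while the other 5 libraries detected 19467 to 20308. Over 11996 protein-coding genes, its difference from the other controls ran with the GC content of the transcript (Pearson r = −0.62 across genes, a description, since genes are not independent). The median log2 difference was 0.70 for genes under 45% GC and −1.36 for genes over 55% GC. Caba-780 replicate 2 differed from the other treated libraries along the same axis, with smaller differences (r = −0.59, medians 0.21 and −0.28). The comparison of each of the 8 genes is therefore given with all 6 libraries and without control replicate 3. Of the markers of the labelled epithelial origin, KRT8 (3121 to 7675 normalized counts) and KRT18 (3308 to 4685) were high, CDH1 was at 0 to 2.69 and EPCAM was at 0 outside control replicate 3, while the mesenchymal marker VIM was at 7571 to 18396. Summed immune markers were at 45.7 to 56.0 with Caba-780 and 0 to 19.4 in controls, of which ITGAM made up most, and PTPRC, CD3E and CD68 were not analysed here.

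With Caba-780, in the fit without control replicate 3, TNFRSF10B, FAS and CFLAR rose, CASP6 and CASP9 fell, and TNFRSF10A, FADD and CASP8 did not pass the test. TNFRSF10B, the TRAIL receptor DR5, had the largest rise, to 2.18 times the mean of control replicates 1 and 2. CASP6 had the largest fall, to 0.562 times that mean. These were 5 calls of 8 (limma, adjusted p under 0.05 over all genes). As background, 32.4% of the 13708 genes tested were called, 17.2% higher and 15.2% lower. The 8 genes were chosen with earlier results of these data known, so their share cannot be read as an excess over that background. With all 6 libraries, limma called 0 of the 8, at a background of 1.00% of 13847 genes, 0.744% higher and 0.260% lower. In that fit 4 of the 8, TNFRSF10B, CASP6, CFLAR and FAS, had an unadjusted p under 0.05, as did 2352 of all 13847 genes. On the recovered reads, edgeR and limma-voom called 0 of the 8. DESeq2 called TNFRSF10B, CFLAR and CASP6, among 1223 of the 13847 genes. Scaled by library totals, the share of higher calls in the fit without control replicate 3 was 68.9%, against 53.2% with the deposited size factors, and CASP9 was then no longer called. The median log2 change over the 8 genes was 0.31 with 6 libraries and 0.22 without control replicate 3, beside 0.10 and −0.02 over all genes tested. All 8 passed the filter on low values. In such bulk libraries, fewer expressing cells and less RNA per cell cannot be told apart. In the authors' deposited table, 2 of the 8 had an adjusted p under 0.05, TNFRSF10B (log2 fold change 1.33, adjusted p 0.000564) and CASP6 (−1.14, adjusted p 0.0161). The share of all genes that passed in the authors' comparison was not counted here.

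**Figure D1:**
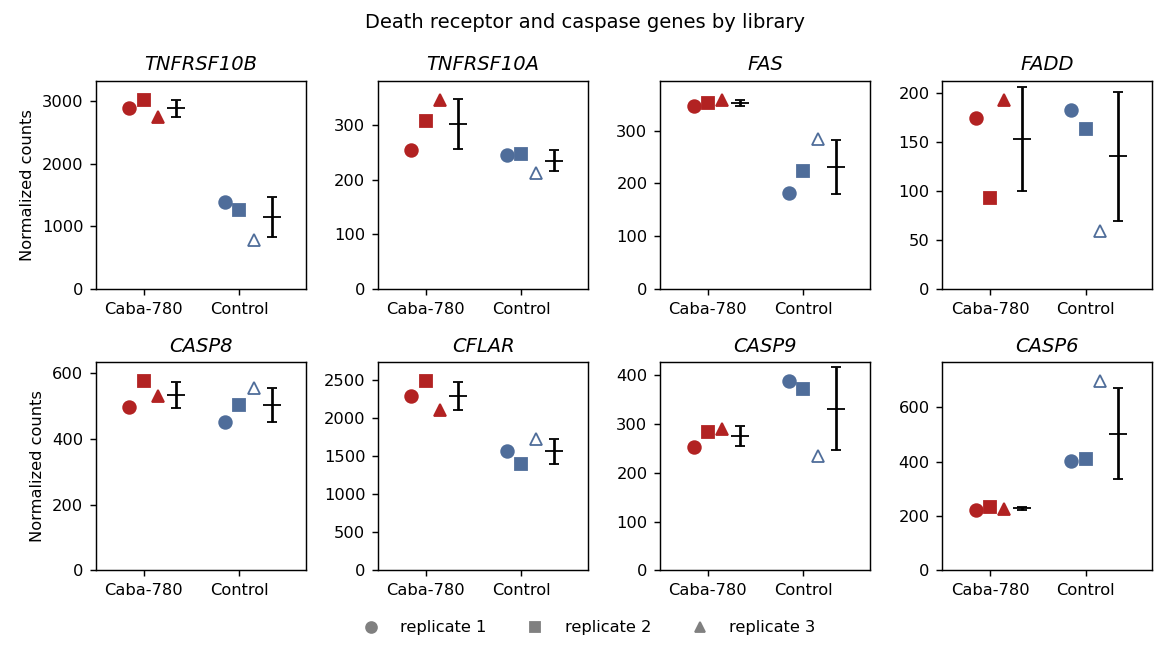
Normalized counts of the 8 genes in each library (vertical axes from 0), with circles, squares and triangles for replicates 1, 2 and 3, an open triangle for control replicate 3, and a dash with bars for the mean ± SD of 3 libraries. The Caba-780 libraries of TNFRSF10B (2746 to 3016) lie above all 3 controls (784 to 1385), and those of CASP6 (224 to 233) lie below them (404 to 696).

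TNFRSF10B (ENSG00000120889, hg38 chromosome 8, 23020133 to 23069179, minus strand) had 2895, 3016 and 2746 normalized counts in Caba-780 replicates 1 to 3, against 1385, 1266 and 784 in control replicates 1 to 3. The groups did not overlap, and control replicate 3 was the lowest library. The means were 2886 ± 135 with Caba-780 and 1145 ± 318 in controls (SD, n = 3 each). Without control replicate 3 the log2 change was 1.12 ± 0.13 (SE, limma adjusted p = 3.00e-07). With 6 libraries it was 1.37 ± 0.25 and missed the threshold (limma adjusted p = 0.0743).

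TNFRSF10A (ENSG00000104689, chromosome 8, 23190452 to 23225126, minus strand), the other death-domain receptor of TRAIL, had 254, 306 and 346 normalized counts with Caba-780, against 244, 246 and 212 in controls. The lowest Caba-780 library lay just above the highest control, so the groups did not overlap, but the gap was small. Its log2 change was 0.29 ± 0.18 without control replicate 3 (SE, limma adjusted p = 0.223), with a 95% interval of −0.08 to 0.65. With 6 libraries it was 0.36 ± 0.21 (limma adjusted p = 0.435). The upper end of its interval without control replicate 3 lies below the lower end of the interval of TNFRSF10B in the same fit (0.85 to 1.40), although the difference between the 2 genes was not tested.

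FAS (ENSG00000026103, chromosome 10, 88990582 to 89015785, plus strand) had 347, 352 and 358 normalized counts with Caba-780, against 182, 224 and 284 in controls. The treated libraries were close together and all above the controls, among which control replicate 3 was the highest. The means were 352 ± 5.79 with Caba-780 and 230 ± 51.2 in controls (SD, n = 3 each). Without control replicate 3 FAS rose by 0.80 ± 0.17 on the log2 scale (SE, limma adjusted p = 0.000803), to 1.73 times the mean of the other controls. With 6 libraries the change was 0.63 ± 0.22 (limma adjusted p = 0.237).

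FADD (ENSG00000168040, chromosome 11, 70203163 to 70207390, plus strand), the adaptor that these receptors share, had 175, 93.3 and 193 normalized counts with Caba-780, against 183, 164 and 59.8 in controls. The groups overlapped, with Caba-780 replicate 2 and control replicate 3 low. Those are the 2 libraries that differed from their groups along the GC axis, and FADD had the highest transcript GC content of the 8 genes, 58.6%. Its log2 change was −0.24 ± 0.25 without control replicate 3 and 0.27 ± 0.51 with 6 libraries (SE), and neither passed (limma adjusted p = 0.494 and 0.798). The 95% interval without control replicate 3 ran from −0.75 to 0.28, so a moderate change in either direction could not be told from none. Of the 8 genes it was the only one whose direction turned when control replicate 3 was left out.

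CASP8 (ENSG00000064012, chromosome 2, 201233443 to 201287711, plus strand) had 497, 575 and 531 normalized counts with Caba-780, against 452, 503 and 556 in controls. The groups overlapped with and without control replicate 3. The log2 change was 0.16 ± 0.15 without control replicate 3 (SE, limma adjusted p = 0.444), with a 95% interval of −0.15 to 0.48. With 6 libraries it was 0.09 ± 0.18 (limma adjusted p = 0.808).

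CFLAR (ENSG00000003402, chromosome 2, 201116104 to 201176687, plus strand), which lies on the same strand of that chromosome as CASP8, had 2287, 2485 and 2115 normalized counts with Caba-780, against 1569, 1401 and 1730.0 in controls. The groups did not overlap, and here control replicate 3 was the highest control. Without control replicate 3 CFLAR rose by 0.63 ± 0.14 on the log2 scale (SE, limma adjusted p = 0.000965), to 1.55 times the mean of the other controls. With 6 libraries the change was 0.55 ± 0.17 (limma adjusted p = 0.191), and DESeq2 called it (adjusted p = 0.0365).

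The relation of CFLAR to the caspases can be read from their coding sequences. The stretches shown hold the codon of the catalytic residue, in capitals, with 12 coding bases before it and 15 after it (principal transcripts of GENCODE v29, 5′ to 3′). In CFLAR the matching codon was placed by the ungapped alignment of the 20 codons before the site in CASP8.
CASP6, coding bases 475 to 504: atcattcaggcaTGTcggggaaaccagcac
CASP8, coding bases 1066 to 1095: tttattcaggctTGTcagggggataactac
CASP9, coding bases 847 to 876: ttcatccaggccTGTggtggggagcagaaa
CFLAR, coding bases 1066 to 1095: tttattcagaacTATgtggtgtcagagggc
The codon encodes cysteine in CASP6 (codon 163), CASP8 (codon 360) and CASP9 (codon 287), and tyrosine in CFLAR (codon 360). Over the whole coding sequence, a global alignment gave CASP8 and CFLAR the same residue at 134 codons, 28.0% of the shorter sequence. CASP8 had the same residue as CASP6 at 108 codons (36.9% of the shorter sequence) and as CASP9 at 126 (30.3%). The coding sequences of CASP6 and CASP9 are shorter, so CFLAR had the highest count with CASP8 and the lowest share. The inhibitor without the catalytic cysteine rose in the fit without control replicate 3, while CASP8 did not pass the test.

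CASP9 (ENSG00000132906, chromosome 1, 15490832 to 15526534, minus strand) had 252, 283 and 290 normalized counts with Caba-780, against 387, 372 and 233 in controls. Control replicate 3 was the lowest of all 6 libraries, so the groups overlapped with it and not without it. Without it CASP9 fell by 0.47 on the log2 scale (SE 0.17, limma adjusted p = 0.0322), to 0.724 times the mean of the other controls. With 6 libraries the log2 change was −0.23 ± 0.25 (SE, limma adjusted p = 0.651). The call without control replicate 3 was narrow: it was also lost without Caba-780 replicate 1 (limma adjusted p = 0.118), control replicate 1 (0.167) or control replicate 2 (0.142).

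CASP6 (ENSG00000138794, chromosome 4, 109688622 to 109703583, minus strand) had 224, 233 and 228 normalized counts with Caba-780, against 404, 408 and 696 in controls. The treated libraries were all below the controls, and control replicate 3 was the highest library. The means were 228 ± 4.45 with Caba-780 and 503 ± 167 in controls (SD, n = 3 each). Without control replicate 3 the log2 change was −0.83 ± 0.17 (SE, limma adjusted p = 0.000407). With 6 libraries it was −1.09 ± 0.26 and missed the threshold (limma adjusted p = 0.129). Annotated exons of MCUB, on the other strand, share 105 of the 1943 annotated bases of CASP6, and no strand setting of the counting is given in the sources used here, so reads there could not be told apart. The largest such share was that of FADD, of whose 1841 bases 1011 are shared with AP000879.1, itself not analysed here. CFLAR shares 1488 of 22529 bases with the pseudogene IMPDH1P10 and 777 with CFLAR-AS1 on the other strand, and 445 with AC007283.1 on its own strand. FAS shares 380 of 4253 bases with ACTA2, and TNFRSF10A shares 266 of 2951 bases with AC100861.1 and 224 with TNFRSF10A-AS1. The overlaps of CASP9 with CELA2B (106 of 5269 bases) and of TNFRSF10B with RHOBTB2 (67 of 5158 bases) were smaller. No other gene shared annotated exon bases with CASP8.

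**Figure D2:**
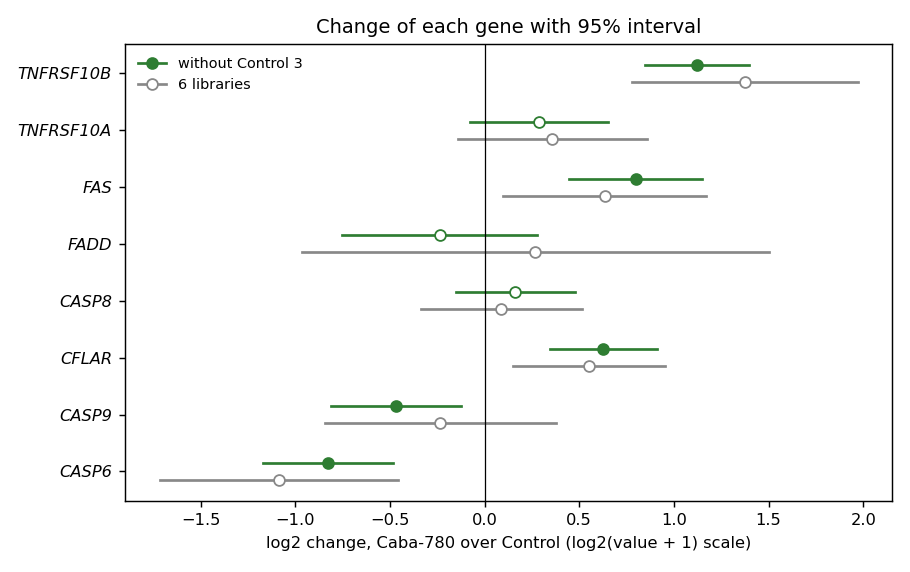
Log2 change of each gene, Caba-780 over control, as a point with its 95% interval from limma (horizontal axis), without control replicate 3 (green, upper) and with 6 libraries (grey, lower), where filled points had an adjusted p under 0.05. TNFRSF10B (1.12), FAS (0.80), CFLAR (0.63), CASP9 (−0.47) and CASP6 (−0.83) were called without control replicate 3, and none was with 6 libraries.

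Control replicate 3 moved the 8 genes in different directions relative to the mean of control replicates 1 and 2. It was higher for CASP6 (1.71 times), FAS (1.40 times), CFLAR (1.16 times) and CASP8 (1.16 times), and lower for TNFRSF10A (0.865 times), CASP9 (0.615 times), TNFRSF10B (0.591 times) and FADD (0.345 times). The GC content of the principal transcript was 39.1% for FAS, 45.1% for CASP6, 46.3% for CASP8, 50.0% for CFLAR, 50.0% for TNFRSF10B, 50.1% for TNFRSF10A, 54.8% for CASP9 and 58.6% for FADD. The genes that were high in that library thus had transcripts of at most 50.0% GC, and those that were low had at least 50.0%. That bound was seen only in these values. CFLAR, TNFRSF10B and TNFRSF10A had nearly the same GC content but lay at 1.16, 0.591 and 0.865 times. FAS had a lower GC content than CASP6 but also a lower ratio. Whether GC content set the ratios of these 8 genes was not tested. When the log2 values of each library were corrected for GC content, a step chosen after the data were seen, limma with all 6 libraries called TNFRSF10B (adjusted p = 0.0143), FAS (adjusted p = 0.0347) and CASP6 (adjusted p = 0.0169). CFLAR (adjusted p = 0.0660) and CASP9 (adjusted p = 0.146) were not called in that corrected limma fit, and without control replicate 3 the corrected fit called the same 5 genes as the uncorrected one.

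**Figure D3:**
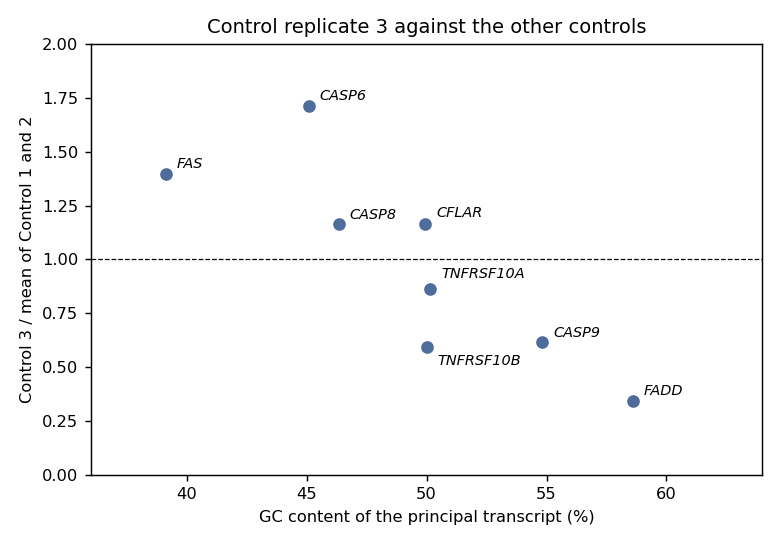
Control replicate 3 over the mean of control replicates 1 and 2 (vertical axis, linear ratio, dashed line at 1) against the GC content of the principal transcript (horizontal axis, %), 1 point per gene. FADD, with 58.6% GC, is lowest at 0.345, and CASP6, with 45.1% GC, is highest at 1.71.

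Levels between genes were compared per kilobase (kb), as normalized counts divided by length. On the deposited gene length, which equals the union of all annotated exons in GENCODE v29, TNFRSF10B was the highest of the 8 with Caba-780 at 559 ± 26.2 per kb (SD, n = 3), against 222 ± 61.7 per kb in controls, where CASP6 was higher at 259 ± 86.1 per kb. Without control replicate 3 this order of the controls turned, with 257 per kb for TNFRSF10B and 209 per kb for CASP6. CASP6 was next with Caba-780, at 117 ± 2.29 per kb. The other 6 genes lay between 52.1 per kb (CASP9) and 102 per kb (TNFRSF10A) in their Caba-780 means, in the order TNFRSF10A, CFLAR, FADD, FAS, CASP8 and CASP9. The first 4 of these differed from their neighbours by less than the larger SD, while FAS, CASP8 and CASP9 were further apart than that. In controls the other 6 lay between 54.1 per kb (FAS) and 79.3 per kb (TNFRSF10A).

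This order depended on the length used, above all for CFLAR, whose exon union of 22529 bases is far longer than its principal coding transcript of 2128 bases. On the principal transcript, a length chosen after the data were seen, CFLAR was the highest, at 1079 ± 87.2 per kb with Caba-780 and 736 ± 77.2 per kb in controls (SD, n = 3 each). TNFRSF10B followed with Caba-780 at 696 ± 32.7 per kb and CASP8 was next at 328 ± 23.9 per kb. TNFRSF10A (111 ± 17.0 per kb) and FADD (83.6 ± 28.9 per kb) were the lowest with Caba-780 on that scale, and these 2 overlapped. The fold between groups does not depend on the length.

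The ratio of CFLAR to CASP8, the inhibitor over the caspase it resembles, was 3.52, 3.31 and 3.05 in Caba-780 replicates 1 to 3, against 2.66, 2.13 and 2.38 in control replicates 1 to 3, per kb of principal transcript. The treated libraries were all above the controls, with control replicate 3 in the middle of its group. The ratio of TNFRSF10B to TNFRSF10A was 7.47, 6.44 and 5.20 with Caba-780, against 3.71, 3.37 and 2.42 in controls. Here too the groups did not overlap. With the deposited gene length the CFLAR ratios were lower, at 1.38 ± 0.10 with Caba-780 and 1.00 ± 0.11 in controls (SD, n = 3 each). The order of the libraries cannot change with the length, which is the same for a gene in every library. These ratios were not tested.

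**Figure D4:**
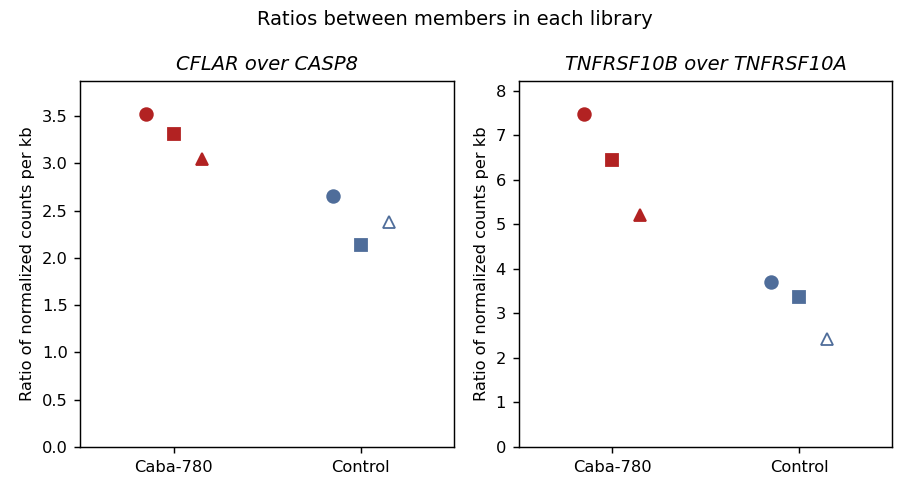
Ratio of normalized counts per kb of principal transcript in each library (vertical axes from 0), CFLAR over CASP8 on the left and TNFRSF10B over TNFRSF10A on the right, with circles, squares and triangles for replicates 1, 2 and 3. The Caba-780 libraries lie at 3.05 to 3.52 and 5.20 to 7.47, above the controls at 2.13 to 2.66 and 2.42 to 3.71.

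Promoter windows from RefSeq (GRCh38.p14) were at hand for 6 of the 8 genes, in 14 windows of 250 bases before an annotated start. No window was at hand for TNFRSF10B, which had the largest rise, or for TNFRSF10A. The windows of FAS and CFLAR, which rose, and of CASP6, which fell, in the fit without control replicate 3 are shown for their last 110 bases before the start, with the SP1 letters GGGCGG or CCGCCC in capitals.
FAS, chr10:88990688-88990797, plus strand: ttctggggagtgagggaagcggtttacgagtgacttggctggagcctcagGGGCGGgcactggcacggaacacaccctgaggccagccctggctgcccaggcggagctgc
CFLAR, chr2:201118606-201118715, plus strand: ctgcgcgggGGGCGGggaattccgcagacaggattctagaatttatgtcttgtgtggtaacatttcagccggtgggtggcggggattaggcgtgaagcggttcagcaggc
CASP6, chr4:109703446-109703555, minus strand: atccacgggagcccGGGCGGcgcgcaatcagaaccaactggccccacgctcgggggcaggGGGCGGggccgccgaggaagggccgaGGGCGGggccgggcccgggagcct
Within 250 bases these letters occurred 3 times in the window of CASP6 and once each in the FAS and CFLAR windows shown, and 42.6% of all 35116 promoter windows held them. Other windows differed, with 1 to 2 matches over the 3 windows of FAS and 0 to 2 over the 4 of CFLAR. CASP9, which also fell, had 8 matches in each of its 2 windows. Of the genes that did not pass the test, FADD had 2 matches in its 1 window and CASP8 had 0 to 1 over 3 windows. Among these 6 genes the letters did not separate the called genes from the others. The NF-kB letters GGG, any 2 bases and TTTCC, held by 1.73% of all windows, and the ATF4/CHOP letters TTGCATCA, held by 0.772%, were searched on both strands and matched in 0 of the 14 windows. The looser NF-kB letters GGG, any 5 bases and CC, were held by 54.4% of all windows. In the CFLAR window shown they matched at 234 and 97 bases before the start, and in another CFLAR window at 119. The match at 97 bases overlapped the SP1 letters and reads GGGGAATTCC, which differs from the stricter letters at 1 base. Windows of CASP9, CASP8, CASP6 and FAS held the looser letters as well. No match says only that these letters are not in this window, and other forms of an NF-kB site were not searched.

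In the same fit without control replicate 3, 44 genes of 6 further lists of the pathway were tested with limma. Of these, 9 rose, 9 fell and 26 did not pass, so 18 of 44 were called, beside 32.4% over all genes. The lists were also chosen with earlier results of these data known, so an excess over that share cannot be read from them. The median log2 change of the 44 genes was −0.03, beside −0.02 over all genes. With 6 libraries, limma, edgeR and limma-voom called 0 of the 44 (10 at an unadjusted p under 0.05 with limma), and DESeq2 called 7, namely TNF, LTA, TNFSF10, NGFR, CYLD, CASP4 and SPTAN1. Of all 13847 genes tested with 6 libraries, 2352 had an unadjusted p under 0.05 with limma, and DESeq2 called 1223. Without control replicate 3, 2 of 5 tested ligand genes rose and 2 fell. TNF, the ligand of TNF receptors, had 450, 468 and 459 normalized counts with Caba-780, against 44.6, 55.6 and 0 in controls. Its log2 change was 3.18 without control replicate 3, the library listed at 0, with a 95% interval of 2.79 to 3.57. With 6 libraries it was 5.07, with an interval of 1.45 to 8.68, and did not pass (limma adjusted p = 0.187). LTA, lymphotoxin alpha, was low throughout, at 13.7 to 16.0 with Caba-780 and 0 to 1.03 in controls. TNFSF10, the gene of TRAIL itself, was low as well, at 7.17 to 11.8 normalized counts with Caba-780 and 24.7 to 90.2 in controls, and fell (limma adjusted p = 0.0271, without control replicate 3). The ligand gene of its receptors was thus lower in the fit in which TNFRSF10B was higher. FASLG, the FAS ligand gene, was not analysed here.

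Of 7 other receptor and decoy genes tested, 2 rose and none fell without control replicate 3, where 32.4% of all genes were called. With 6 libraries limma called 0 of the 7. They were NGFR, the low-affinity neurotrophin receptor with a death domain, at 43.4 to 76.2 normalized counts with Caba-780 and 19.2 to 25.2 in controls, and TNFRSF21 (DR6), at 230 to 234 with Caba-780 and 146 to 189 in controls. TNFRSF10D, a TRAIL receptor without a complete death domain, was at 304 ± 16.2 with Caba-780 and 174 ± 138 in controls (SD, n = 3 each) and did not pass (limma adjusted p = 0.255, without control replicate 3). Its level in control replicate 3 was 0.0577 times that of the other controls.

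Of 10 tested adaptors and kinases of receptor complexes, 3 rose and 2 fell without control replicate 3, beside 32.4% of all genes called. CYLD, a deubiquitinase that acts on RIPK1, had 2024, 2863 and 2332 normalized counts with Caba-780, against 744, 645 and 1226 in controls, a log2 change of 1.78 ± 0.15 without control replicate 3 (SE, limma adjusted p = 6.14e-10) and of 1.51 ± 0.29 with 6 libraries (limma adjusted p = 0.0860). PIDD1, which scaffolds the activation of CASP2, was at 914 to 1079 normalized counts with Caba-780 and 117 to 738 in controls, and rose by 0.53 on the log2 scale without control replicate 3, against a change of 1.38 ± 0.69 with 6 libraries that did not pass (SE, limma adjusted p = 0.366). CASP4, an inflammatory caspase, was the only one of 5 other caspase genes tested that rose without control replicate 3 (0.58 ± 0.17, SE), and none fell.

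Of 8 genes of the apoptosome and of proteins released from mitochondria, 1 fell and none rose without control replicate 3, beside 32.4% of all genes called. AIFM1, a mitochondrial flavoprotein, was at 826 to 900.3 normalized counts with Caba-780 and 1010.5 to 1226 in controls. The endonuclease gene ENDOG was at 146 to 297 with Caba-780 and 81.2 to 320.0 in controls, and did not pass (limma adjusted p = 0.102, without control replicate 3). DIABLO reads may be split between 2 overlapping gene IDs, so its value is uncertain. Of 9 genes of caspase substrates, 4 fell and 1 rose without control replicate 3. GSN, an actin-severing protein, was at 2030 to 2728 normalized counts with Caba-780 and 2306 to 4002 in controls (log2 change −0.68 ± 0.14), and SPTAN1, the alpha spectrin of non-erythroid cells, at 9916 to 10610 with Caba-780 and 6161 to 7966 in controls (log2 change 0.56 ± 0.14, SE without control replicate 3). LMNA, a lamin that CASP6 cleaves, was at 9493 ± 1754 with Caba-780 and 11678 ± 4205 in controls (SD, n = 3 each). Control replicate 3, at 6830, was the lowest library. Without it the control mean was 14102, and LMNA fell (limma adjusted p = 0.00325). With 6 libraries the log2 change of LMNA was −0.24 and did not pass (limma adjusted p = 0.722).

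**Figure D5:**
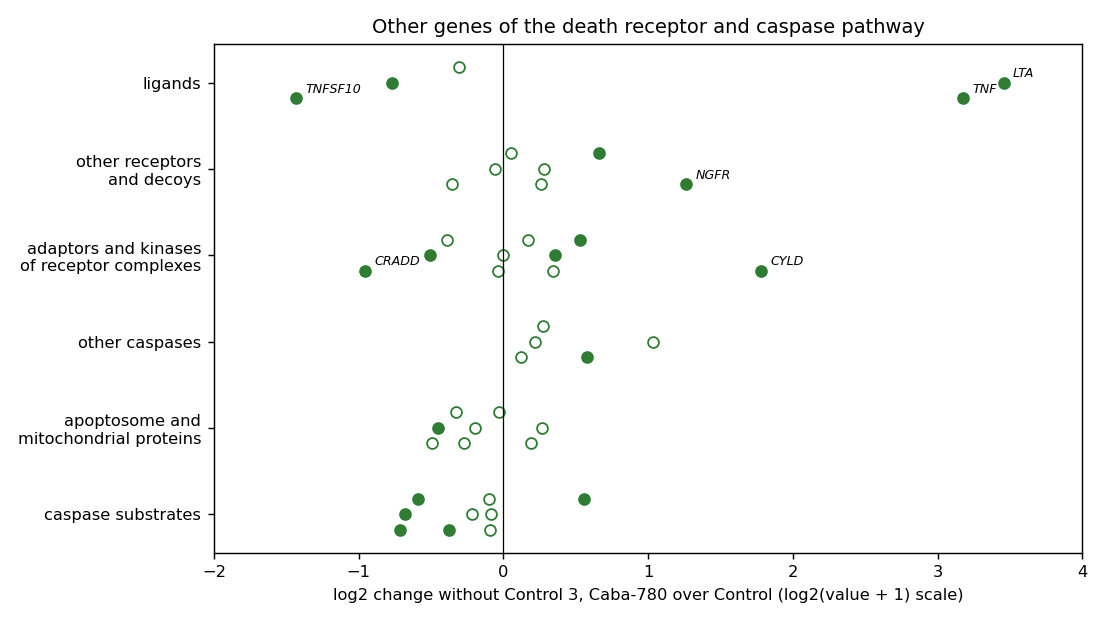
Log2 change without control replicate 3, Caba-780 over control (horizontal axis), of the 44 tested genes of the 6 further lists, 1 point per gene and 1 row per list, where filled points had a limma adjusted p under 0.05. TNF (3.18) and LTA (3.46) lie farthest to the right and TNFSF10 (−1.43) farthest to the left, and most genes of the other lists lie close to 0.

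For each of the 8 genes, the protein-coding gene whose log2 values followed it most closely over the 6 libraries was looked up among 10223 genes with at least 5 CPM on average. For TNFRSF10B this was ABCB1, the drug efflux pump P-glycoprotein (Pearson r = 0.9990). CFLAR was followed by RASAL2 (r = 0.9996), a RAS GTPase-activating protein, and CASP6 by ARL15 (r = 0.9996), a small GTPase. FAS was followed by MTO1 (r = 0.9929), FADD by SAP30L (r = 0.9980), CASP9 by ATP8B3 (r = 0.9924), CASP8 by ABHD18 (r = 0.9851) and TNFRSF10A by TARBP1 (r = 0.9738). These values describe 6 libraries in 2 groups that share library differences, control replicate 3 among them. Each is the highest r from a search of 10223 genes over only 6 libraries, so a value near 1 can come from the search alone. Within the 8 genes, TNFRSF10B and CASP6 ran most nearly opposite to each other (r = −0.992), and FAS and CFLAR were the most alike (r = 0.871).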

How the data were processed

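The submitters' processing notes name hg38, the read filter fastp, the aligner HISAT2 (2.0.5), the counter featureCounts (1.5.0-p3) and DESeq2 (1.20.0), with settings not given in the sources used here. Deposited by the authors was a normalized signal per library, the read count of each gene scaled by a size factor, and 100% of values came out as whole reads at a tolerance of 1e-06. The log2 fold changes that the authors deposited, and the deposited p-values, are from their own comparison. Gene length, deposited too (unit other), is in bases.

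Caba-780 was compared with control using limma (3.58.1, R 4.3.3) on log2(value + 1), with trend and robust moderation, for genes that reached 10 normalized counts in 3 or more libraries, two-sided, with Benjamini-Hochberg adjustment over all genes tested and a threshold of 0.05. The pseudocount understates the change of low genes. The test was run on simulated data first. edgeR 4.0.16, DESeq2 1.42.0 and limma-voom on the recovered reads were alternatives: with 6 libraries edgeR called 137 genes, DESeq2 1223 and limma 139. GC correction used a lowess fit per library. The GC content and lengths are those of GENCODE v29, whose start and end equalled the table's in 23616 of 23619 rows. Libraries of the same group were further apart than counting noise allows (chi-square per degree of freedom 9.10 to 191), and none was counted as a duplicate.

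The members and lists were chosen with earlier results of these data known. In each further list, the 2 genes with the lowest p without control replicate 3 were to be named, and 1 of these results is not reported here; TNFSF10, TNFRSF10D, DIABLO and LMNA were added after their values were seen, as was the description of MCUB. The intended comparison of protein sequences was limited to coding sequences.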

Additional observations from a re-analysis of the deposited data

How the results depend on the processing

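Without control replicate 3, the calls of TNFRSF10B, FAS, CFLAR and CASP6 held in all 14 alternatives and when any 1 of the other 5 libraries was also left out, which with 1 control left assumes that it varies like the other group. The call of CASP9 held in 10 of the 14, and was lost with library totals (limma adjusted p = 0.0901), no filter (0.0535), no trend or robust moderation (0.0614) and a threshold of 0.01. The 4436 genes called became 2602 without trend or robust moderation, 2699 at a threshold of 0.01 and 2300 to 4267 with another library left out; the members called were then 4 to 5. With 6 libraries, 139 genes and 0 members were called, against 1223 genes and 3 members with DESeq2 and 1264 genes and 3 members after GC correction. At a threshold of 0.01 and with the replicate number as a block, limma called 0 genes (2352 and 1563 at an unadjusted p under 0.05). Leaving out 1 library gave 0 to 4436 genes and 0 to 5 members, the highest without control replicate 3; of the 0 counts, 1092 to 1948 genes had an unadjusted p under 0.05. The change of FADD reversed, ranging from −0.24 to 0.59 with 1 of 6 libraries left out, and from −0.44 to 0.0857 when a further library besides control replicate 3 was left out (0.0857 without Caba-780 replicate 2). Library totals moved the median log2 change of all genes to 0.22 with 6 libraries, against 0.10.

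The replicate numbers were not taken to pair the libraries, since deviations from the group means correlated at 0.303, −0.334 and −0.101 for replicates 1, 2 and 3, and only replicate 1 correlated best with its own number. With the replicate block and without control replicate 3, 3891 genes and the same 5 members were called. GC correction and transcript length were added after the data were seen. Depth limits FADD most, at 53 to 197 reads per library; a floor of 3 reads was 2.69 to 3.38 normalized counts, which covers counting error only, since PCR copies are not independent.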
